A study of Homo sapiens with 6 samples.

Results

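Heme synthesis enzymes were examined at the mRNA level in PANC-1 cells, a human line derived from a pancreatic ductal carcinoma. The 7 genes ALAS1, ALAD, UROS, UROD, CPOX, PPOX and FECH were chosen by name, and each matched 1 of the 58825 genes in the deposited table. All 7 were among the 17774 genes with a mean FPKM (fragments per kilobase of gene, scaled to sequencing depth) of at least 0.1, which were tested. RNA-seq of poly(A) RNA covered 3 samples treated with 40 μM maslinic acid (MA), a triterpenoid of olives, for 24 h (MA PANC-1 1 to 3) and 3 samples without MA (PANC-1 1 to 3). The comparison asked how the expression profile of these cells differed with and without MA. The study's methods call the samples of a group biological replicates, and give DMSO as the control for MA in cell culture, without naming it again for the sequenced samples. Values listed for a group are in the order of replicates 1, 2 and 3. The depth, as the total of the estimated counts, was 56978375, 63984133 and 58181114 with MA, and 70275355, 65607669 and 59422939 without.

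Heme is built from glycine and succinyl-CoA in a chain of reactions that starts in the mitochondrion, continues in the cytosol and ends in the mitochondrion. ALAS1, the housekeeping form of 5-aminolevulinate synthase, makes the first intermediate and is the rate-limiting step outside red blood cell precursors, where ALAS2 takes its place. The heme made serves cytochromes and other hemoproteins, and high heme represses ALAS1 in many cells.

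The cell identity was checked on markers first. Of the 6 ductal epithelial markers, KRT18 lay between 278 and 338 FPKM, KRT8 between 141 and 225 FPKM, SOX9 between 12.6 and 18.2 FPKM and KRT7 between 1.40 and 2.19 FPKM over the 6 samples, while KRT19 and EPCAM stayed under 0.3 FPKM in every sample. Of the 4 mesenchymal markers, VIM lay between 521 and 754 FPKM, CDH2 between 12.2 and 17.3 FPKM, ZEB1 between 0.609 and 1.42 FPKM and FN1 between 0.329 and 0.835 FPKM. All 10 erythroid markers, among them ALAS2, were also under 0.3 FPKM in every sample, as were all 6 hepatocyte, 5 acinar, 4 immune and 3 endothelial markers. The sum of the erythroid markers lay between 0.173 and 0.545 FPKM, and HBA1 was the most abundant of them. ALAS2 had 3 counts in MA PANC-1 3 and 0 counts in the other samples. Among the ductal and mesenchymal markers above 0.3 FPKM, SOX9 alone had FPKM groups that did not overlap, as 19.9% of all genes tested did. SOX9 was at 14.5, 12.6 and 13.6 FPKM with MA and at 17.3, 18.2 and 16.6 FPKM without.

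The enzymes differed widely in level and little between the groups. In untreated cells ALAS1 had the highest level, 65.4 ± 3.38 FPKM (SD, n = 3), and PPOX the lowest, 1.56 ± 0.118 FPKM, a 41.8-fold difference that was 15.9-fold with the length of the principal mRNA in place of the FPKM length. After MA, ALAS1 was 1.21-fold higher, which was the one difference among the 7 genes past an unadjusted p of 0.05 by edgeR's quasi-likelihood test. Of all genes tested, 11.2% passed that threshold, 5.37% higher and 5.86% lower after MA. By edgeR 0 of the 7 passed after Benjamini-Hochberg adjustment over all genes tested (lowest adjusted p = 0.429), against 0.0394% of all genes, and 0 passed by DESeq2, against 1.8% of the 14623 genes it gave an adjusted p, or by limma on log2(FPKM + 0.1), against 0.045% of all genes. By any of these tools 0 were DEGs at the thresholds of the study, a 2-fold change and an unadjusted p under 0.05, which 1.92% of all genes met by edgeR.

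**Figure D1:**
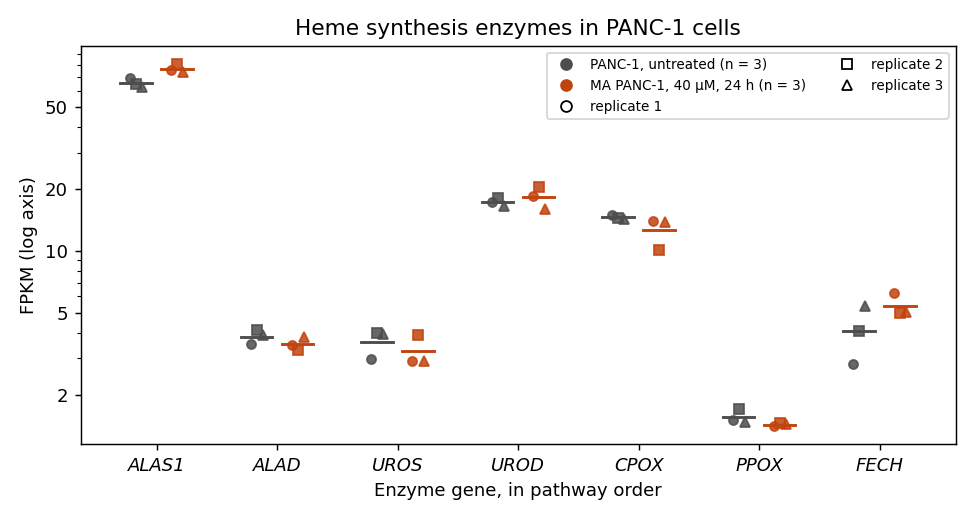
FPKM on a log axis of the 7 enzymes in pathway order, with 1 point per sample (circle, square and triangle for replicates 1, 2 and 3) and a line at the mean of each group of 3. On the FPKM scale the ALAS1 points lie far above the others, and the MA and untreated points do not overlap for ALAS1, CPOX and PPOX.

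The first enzyme, ALAS1 (ENSG00000023330), lies at chr3:52198086-52214327 on the plus strand, in positions that match GRCh38. Its level was 75.3, 80.8 and 74.0 FPKM with MA. Without MA it was 69.1, 64.6 and 62.4 FPKM. Every MA sample was above every untreated sample, with MA PANC-1 2 the highest and PANC-1 3 the lowest. The log2 fold change was 0.27 ± 0.10 (SE), with an unadjusted p of 0.0268 and an adjusted p of 0.429 by edgeR, and its 95% interval ran from 1.03-fold to 1.41-fold. With 3 samples a group the exact two-sided permutation test on log2 CPM (counts scaled to the library total times its TMM factor) could not go below p = 0.1, which is the value ALAS1 had. The unadjusted p was 0.0756 without PANC-1 2 and 0.0938 without PANC-1 3, so the call was lost without either of these libraries. A bulk sample cannot tell more RNA per cell from a different mix of cells.

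The promoter of ALAS1 is shown because this gene carried the one call among the enzymes. The window chr3:52197833-52198132 (GRCh38.p14, plus strand, from RefSeq) runs from 250 bases before the transcription start to 50 bases after it. Capitals mark TGCGCA, the half-site of the factor NRF1, a regulator of nuclear genes for mitochondrial proteins, which reads the same on both strands.

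ALAS1 promoter: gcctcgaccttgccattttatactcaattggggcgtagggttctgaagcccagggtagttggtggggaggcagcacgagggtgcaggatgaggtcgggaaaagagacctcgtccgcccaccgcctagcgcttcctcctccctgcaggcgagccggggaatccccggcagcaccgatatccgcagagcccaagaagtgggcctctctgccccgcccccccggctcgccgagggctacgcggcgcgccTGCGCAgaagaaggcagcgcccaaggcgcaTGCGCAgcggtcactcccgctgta

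The half-site began 4 bases before the start and again 26 bases after it. Of 35116 RefSeq promoter windows of this length, 8.24% held it. ALAS1 was the one gene with it among the 6 enzymes that had a window (8 windows, since ALAD and PPOX had 2 each). The GC box GGGCGG, which SP1 binds, stood on one strand or the other in 7 of the 8 windows and in 45.0% of all windows. The core of the antioxidant response element, TGACNNNGC on either strand, stood in the FECH window and in 13.3% of all windows. These motifs, and the promoters to print, were chosen after the sequences and the values had been seen, so nothing is read from the shares, and a match is a description and not a binding site. NRF1 itself was at 4.52, 5.19 and 4.20 FPKM with MA and at 4.10, 4.68 and 5.32 FPKM without MA, with overlapping groups.

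The cytosolic enzymes ALAD, UROS and UROD had overlapping groups. ALAD (ENSG00000148218, chr9:113386312-113401284, minus strand) joins molecules of 5-aminolevulinate into porphobilinogen. It was at 3.49, 3.29 and 3.80 FPKM with MA and at 3.51, 4.10 and 3.88 FPKM without MA. The highest value came from PANC-1 2 and the lowest from MA PANC-1 2, with the others between 3.49 and 3.88 FPKM. The fold change of ALAD was 0.943 (95% interval 0.774 to 1.15, adjusted p = 0.805 by edgeR). Its log2 value of -0.085 ranged from -0.15 without PANC-1 1 to -0.031 without PANC-1 2. With each library's GC trend removed it was -0.18.

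UROS (ENSG00000188690, chr10:125784980-125823285, minus strand) closes the linear tetrapyrrole into the ring of uroporphyrinogen III. Its values were 2.92, 3.90 and 2.91 FPKM in the MA samples and 2.97, 3.97 and 3.93 FPKM in the untreated samples. The 6 values formed a lower set of MA PANC-1 1, MA PANC-1 3 and PANC-1 1, and a higher set of MA PANC-1 2, PANC-1 2 and PANC-1 3, so the split ran across the groups. The UROS fold change was 0.923, with a 95% interval from 0.677 to 1.26 and an adjusted p of 0.834 by edgeR. Its log2 value of -0.12 ranged from -0.32 without MA PANC-1 2 to -0.023 without MA PANC-1 3.

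UROD (ENSG00000126088, chr1:45010950-45015575, plus strand) removes carboxyl groups from uroporphyrinogen to give coproporphyrinogen. With MA it was at 18.4, 20.4 and 15.9 FPKM, and without MA at 17.2, 18.0 and 16.6 FPKM. The MA samples held both the highest and the lowest value, and their SD of 2.22 FPKM stood beside 0.729 FPKM in the untreated samples. The fold change was 1.09 (95% interval 0.877 to 1.35, adjusted p = 0.740 by edgeR). Its log2 value of 0.12 became -0.010 without MA PANC-1 2 and 0.020 with each library's GC trend removed, so its direction was not settled.

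The mitochondrial enzymes CPOX, PPOX and FECH complete the porphyrin and insert the iron. CPOX (ENSG00000080819, chr3:98579446-98593723, minus strand) oxidizes coproporphyrinogen III to protoporphyrinogen IX. It was at 13.9, 10.0 and 13.8 FPKM with MA and at 14.9, 14.4 and 14.3 FPKM without MA. The groups did not overlap, but MA PANC-1 1 and 3 were close to the untreated samples and MA PANC-1 2 was apart. The fold change was 0.884 (95% interval 0.721 to 1.08, unadjusted p = 0.195 and adjusted p = 0.595 by edgeR), and the log2 value went from -0.18 to -0.07 without MA PANC-1 2. The count-weighted GC content of MA PANC-1 2 was 52.2%, against 50.9% to 51.4% in the other libraries, and with each library's GC trend removed the log2 fold change of CPOX was -0.23.

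The CPOX promoter is shown because CPOX was the other enzyme whose groups did not overlap on log2 CPM. Capitals mark TTATCT, the reverse strand of AGATAA, a site of the GATA factors, in the window chr3:98593562-98593861 (GRCh38.p14, minus strand, from RefSeq).

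CPOX promoter: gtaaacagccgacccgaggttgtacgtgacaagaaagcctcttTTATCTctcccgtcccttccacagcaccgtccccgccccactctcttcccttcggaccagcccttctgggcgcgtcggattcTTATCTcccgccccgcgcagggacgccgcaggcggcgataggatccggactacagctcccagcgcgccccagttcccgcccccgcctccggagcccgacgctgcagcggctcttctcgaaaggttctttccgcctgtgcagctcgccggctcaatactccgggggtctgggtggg

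The matches began 207 and 125 bases before the transcription start. A match on either strand was held by 10.3% of the 35116 windows, and among the enzymes 1 of the PPOX windows also held 1. The erythroid factor GATA1 was under 0.3 FPKM in all 6 samples.

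PPOX (ENSG00000143224, chr1:161166056-161178013, plus strand) oxidizes protoporphyrinogen IX to protoporphyrin IX. The MA samples were at 1.41, 1.45 and 1.43 FPKM and the untreated samples at 1.51, 1.70 and 1.48 FPKM. On FPKM the groups did not overlap, with MA PANC-1 2 and PANC-1 3 next to each other, but on log2 CPM with TMM factors they overlapped and the exact permutation p was 0.5. The fold change was 0.944 (95% interval 0.732 to 1.22, adjusted p = 0.860 by edgeR). Its log2 value of -0.082 ranged from -0.13 without MA PANC-1 2 to -0.017 without PANC-1 2. With each library's GC trend removed it was -0.19. PPOX overlaps B4GALT3 on the opposite strand, which had a mean of 1792 counts a sample against 457 to 636 for PPOX. The library kit marks strand, the setting used in counting was not given in the sources used here, and the PPOX level is therefore uncertain.

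FECH (ENSG00000066926, chr18:57544389-57586702, minus strand), the ferrochelatase that places ferrous iron in protoporphyrin IX, had the largest log2 fold change of the enzymes and the widest interval. It was at 6.24, 4.97 and 5.05 FPKM with MA. Without MA it was at 2.82, 4.09 and 5.37 FPKM. The untreated samples spread from the lowest to the second highest of the 6 values, so the groups overlapped. The log2 fold change was 0.44 ± 0.23 (SE), 1.36-fold with a 95% interval from 0.935 to 1.96 (unadjusted p = 0.0944, adjusted p = 0.494 by edgeR). It was 0.23 without PANC-1 1 and 0.68 without PANC-1 3, where the unadjusted p of the edgeR test was 0.0159 and the adjusted p stayed above 0.05. Its pseudogene FECHP1 had 0 counts in every sample.

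**Figure D2:**
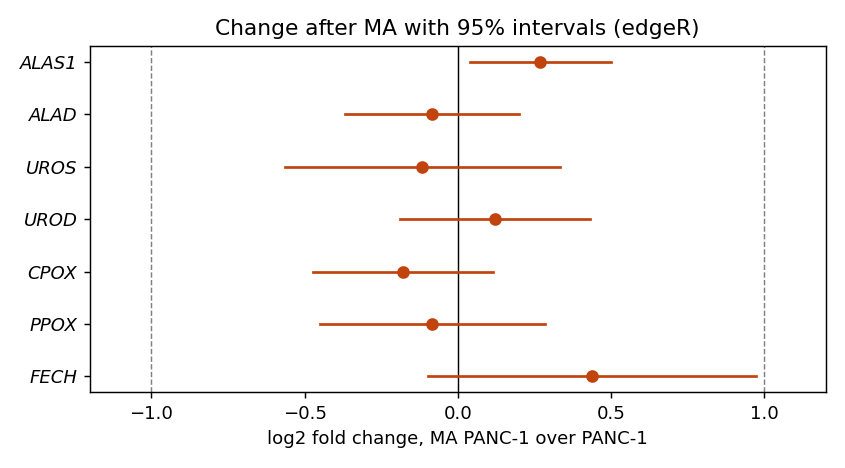
Log2 fold change (MA PANC-1 over PANC-1) of the 7 enzymes, with 95% intervals from the edgeR fit and dashed lines at 2-fold in either direction. The ALAS1 interval alone lies wholly on one side of 0, and all 7 intervals lie inside 2-fold.

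Across the 7 enzymes, 3 had a positive and 4 a negative log2 fold change. Their median was -0.08 (from -0.11 to -0.017 when a sample was left out, and -0.16 with each library's GC trend removed), beside -0.0017 over all genes tested, and their median absolute value was 0.12, beside 0.22 over all genes. The FPKM groups did not overlap for 3 of the 7, higher after MA for ALAS1 and lower for CPOX and PPOX. Of all genes tested 19.9% had groups that did not overlap, and 8.79% had groups that did not overlap and were higher after MA. In the edgeR fit on all 6 samples, all 7 of the 95% intervals excluded a 2-fold change in either direction. That of FECH did so narrowly, with an upper limit of 1.96-fold. Without PANC-1 3 the log2 fold change of FECH was 0.68, for which no interval is given here. ALAS1 took 45.8%, 48.4% and 47.6% of the counts of the 7 genes with MA, and 47.3%, 42.5% and 41.4% without. These shares overlapped between the groups, with PANC-1 1 above MA PANC-1 1.

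On the FPKM scale the order of the untreated levels was ALAS1, UROD (17.3 FPKM), CPOX (14.5 FPKM), FECH (4.09 FPKM), ALAD (3.83 FPKM), UROS (3.62 FPKM) and PPOX. FECH and ALAD overlapped in their untreated ranges, as did ALAD and UROS, and the other neighbours did not. By mean level over the 6 samples ALAS1 was at percentile 97.1 of the genes tested, UROD at 86.9, CPOX at 83.0, FECH at 62.8, ALAD at 57.7, UROS at 56.2 and PPOX at 41.3.

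The lower part of that order depended on the length used. The gene length implied by the deposited FPKM and counts was 11403 bp for UROS, 8.32 times the 1371 bp of its longest principal mRNA in GENCODE 29. For ALAS1 the implied 3025 bp was 1.25 times the mRNA of 2430 bp. Implied lengths above the annotation were not particular to the enzymes. Their median over genes was 1.19 times the length of all exons of a gene merged in GENCODE 29. Those merged exons covered 9532 bp for UROS and 2536 bp for ALAS1. As CPM per kilobase of principal mRNA, the untreated levels were 81.4 for ALAS1, 63.9 for UROD, 30.1 for UROS, 19.9 for CPOX, 11.1 for FECH, 7.14 for ALAD and 5.12 for PPOX. ALAS1, UROD and PPOX kept their places, UROS moved above CPOX, no neighbours overlapped, and the span from highest to lowest was 15.9-fold. The gap at the top narrowed, with ALAS1 at 1.27 times UROD, against 3.79 times on FPKM. Folds between the groups are not affected, since each gene has the same length in all samples.

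**Figure D3:**
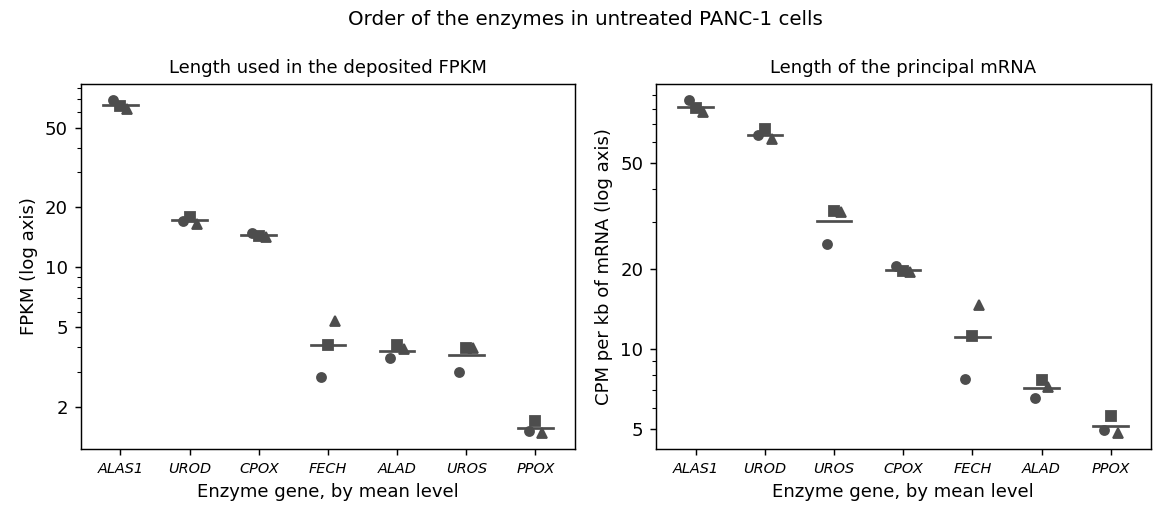
Levels of the 7 enzymes in the 3 untreated samples, ordered by mean, as deposited FPKM (left) and as CPM per kilobase of principal mRNA (right), both on log axes, with 1 point per sample and a line at the mean. UROS stands next to PPOX on the left and between UROD and CPOX on the right.

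By the rule of smallest distance over the 6 samples (log2 CPM centred and scaled, 13041 genes searched), the genes most like ALAS1 in pattern were C2CD2L (distance 0.176), UBE2V1P2 (0.193) and NXT1 (0.220). C2CD2L was at 2.17, 2.56 and 2.11 FPKM in the MA samples and at 1.85, 1.68 and 1.64 FPKM in the untreated samples. Like ALAS1, it was highest in MA PANC-1 2 and lowest in PANC-1 3. The genes nearest to the mean of the 7 scaled enzymes were HOXA11, PTK2B and SCRN2, at distances from 0.431 to 0.498.

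The other genes of the pathway were taken from lists by role. Of 49 genes 46 were tested, since ALAS2, PPARGC1A and SLC49A3 were near 0, and 10 of the 46 (21.7%, beside 11.2% of all genes) passed an unadjusted p of 0.05, 6 higher and 4 lower after MA. After adjustment 0 passed by edgeR (lowest adjusted p = 0.180) or by limma, and 1, SLC25A37, by DESeq2, beside 0.0394%, 0.045% and 1.8% of the genes with an adjusted p by these tools in turn. The count of 10 was 6 without MA PANC-1 1, 5 without PANC-1 1 and 6 without PANC-1 3. In 13 of the 46 the FPKM groups did not overlap, beside 19.9% of all genes.

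**Figure D4:**
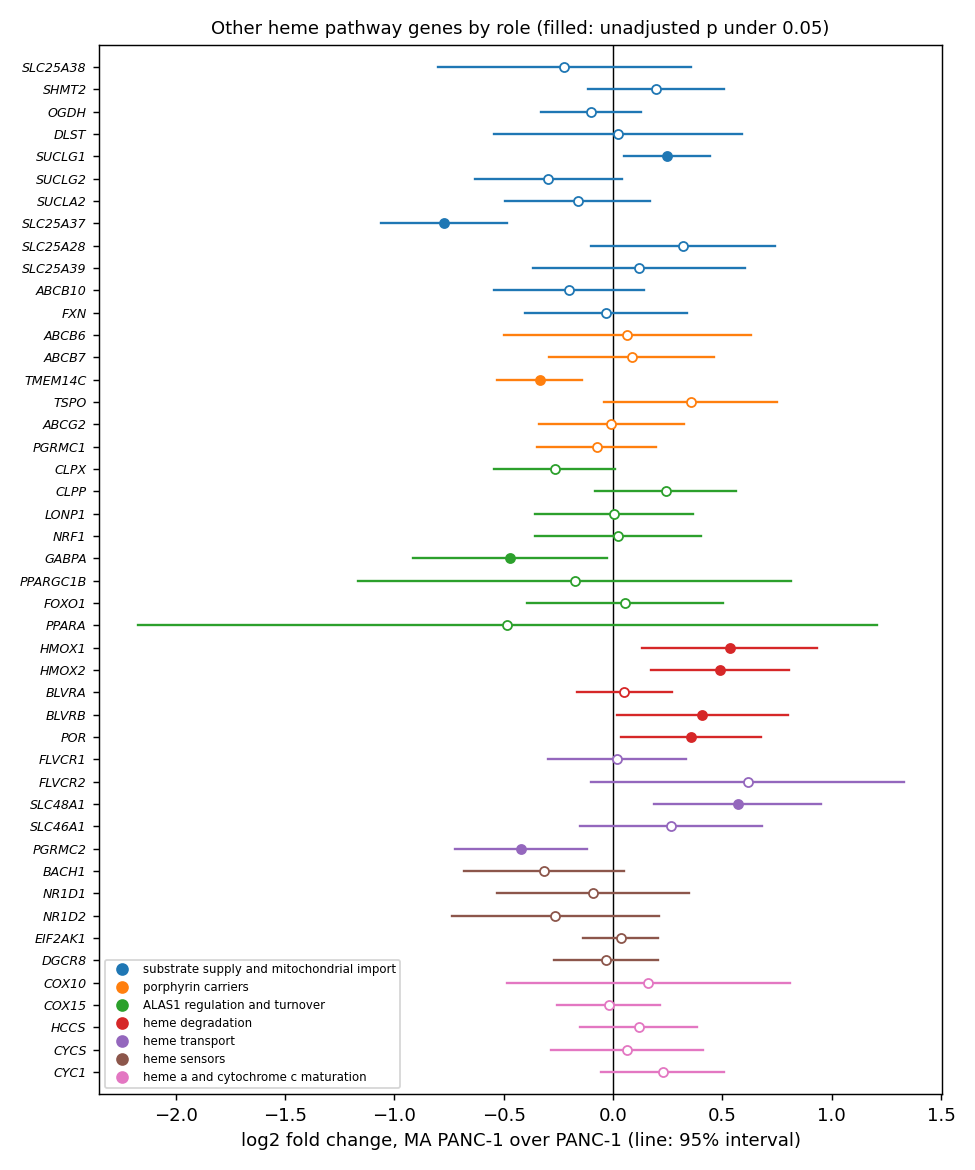
Log2 fold change (MA PANC-1 over PANC-1) with 95% intervals for the 46 other pathway genes tested, coloured by role, with filled points for an unadjusted p under 0.05. The 10 filled points include 4 of the 5 heme degradation genes, all to the right of 0.

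The heme degradation list held the most calls, 4 of 5 genes, all higher after MA, beside 5.37% of all genes. The choice to lead with this count was made after its values were seen. The count was 2 without any 1 of MA PANC-1 1, MA PANC-1 2, PANC-1 2 or PANC-1 3, and 1 without PANC-1 1. HMOX1, the inducible heme oxygenase, was at 18.5, 15.8 and 12.1 FPKM with MA and at 10.3, 11.3 and 11.3 FPKM without MA. Its MA samples were all above the untreated samples, MA PANC-1 3 only by a little (log2 fold change 0.53 ± 0.17, unadjusted p = 0.0159, adjusted p = 0.414 by edgeR). HMOX2, the constitutive heme oxygenase, was at 15.0, 16.3 and 16.0 FPKM with MA and at 13.5, 10.1 and 11.1 FPKM without. Its groups did not overlap, and PANC-1 1 was the untreated sample nearest to the MA samples (0.49 ± 0.13, unadjusted p = 0.00800, adjusted p = 0.388 by edgeR).

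BLVRB, a biliverdin reductase, was at 33.8, 45.0 and 32.6 FPKM with MA and at 28.6, 30.3 and 27.7 FPKM without. MA PANC-1 2 stood above the other samples (log2 fold change 0.41 ± 0.17, unadjusted p = 0.0425, adjusted p = 0.439 by edgeR). POR, the reductase that passes electrons to heme oxygenase and to cytochromes P450, was at 14.7, 16.2 and 12.3 FPKM with MA and at 11.4, 11.3 and 12.0 FPKM without. The lowest MA value was just above the highest untreated value (0.36 ± 0.14, unadjusted p = 0.0331, adjusted p = 0.432 by edgeR). BLVRA, the other biliverdin reductase and the most abundant gene of the list on FPKM, was at 39.6 ± 1.63 FPKM (SD, n = 3) with MA and 39.2 ± 2.80 FPKM (SD, n = 3) without, a log2 fold change of 0.05. With each library's GC trend removed, 4 of the 5 passed an unadjusted p of 0.05 at smaller log2 fold changes, 0.40 for HMOX1, 0.39 for HMOX2, 0.26 for BLVRB and 0.23 for POR. Without MA PANC-1 2 the log2 fold changes of BLVRB and POR were 0.20 and 0.22, and neither passed. HMOX1 was not past the threshold without MA PANC-1 1 (unadjusted p = 0.0637 by edgeR) or without PANC-1 1 (0.0541). BLVRB was also not past it without any 1 of the untreated libraries (0.0657 to 0.111), nor POR without MA PANC-1 1 or any 1 of the untreated libraries (0.0626 to 0.0866). HMOX2 passed in all 17 alternatives.

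**Figure D5:**
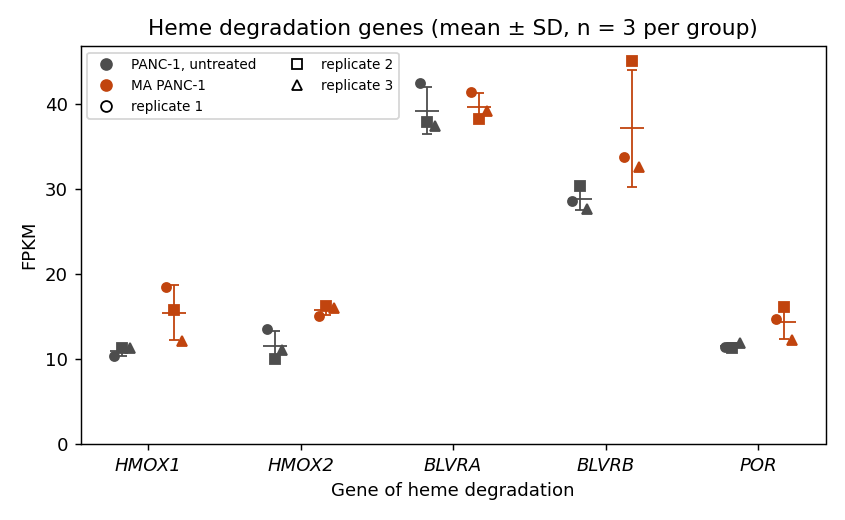
FPKM of the 5 heme degradation genes, with 1 point per sample (circle, square and triangle for replicates 1, 2 and 3) and the mean ± SD of each group of 3. The MA points lie above the untreated points for HMOX1, HMOX2, BLVRB and POR, and the groups overlap for BLVRA.

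Among genes of substrate supply and mitochondrial import, 2 of 12 passed (16.7%, beside 11.2% of all genes), 1 in each direction. SLC25A37, a mitochondrial iron importer (a mitoferrin), was at 4.68, 3.91 and 5.59 FPKM with MA and at 8.16, 8.12 and 8.48 FPKM without MA. The groups lay far apart (log2 fold change -0.77 ± 0.12, 0.585-fold, unadjusted p = 0.000365), with an adjusted p of 0.180 by edgeR and 7.60e-05 by DESeq2, and a range from 7.60e-05 to 0.566 over all alternatives. SUCLG1, a subunit of the ligase that handles succinyl-CoA, was at 42.3, 40.4 and 42.8 FPKM with MA and 33.7, 37.7 and 36.8 FPKM without (0.25 ± 0.08, unadjusted p = 0.0201, adjusted p = 0.426 by edgeR). The groups of SUCLG1 did not overlap. Its log2 fold change was 0.38 with each library's GC trend removed, and its call was lost without any 1 of MA PANC-1 1, PANC-1 1 or PANC-1 3. SUCLG2 and SUCLA2, other subunits of this ligase on the list, had log2 fold changes of -0.30 and -0.16 and did not pass. SHMT2, which supplies glycine and was the most abundant of this list, was at 57.6 ± 6.41 FPKM with MA and 51.7 ± 4.54 FPKM without (SD, n = 3), and its groups overlapped.

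Of the 6 porphyrin carriers 1 passed (16.7%, beside 11.2% of all genes). TMEM14C, which brings protoporphyrinogen IX into the mitochondrial matrix and was the most abundant carrier, was at 59.5, 56.1 and 57.6 FPKM with MA and at 71.9, 75.7 and 76.6 FPKM without. All MA samples were below all untreated samples (log2 fold change -0.34 ± 0.08, unadjusted p = 0.00435, adjusted p = 0.375 by edgeR), and TMEM14C stayed past an unadjusted p of 0.05 in all 17 alternatives.

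Of the 5 heme transport genes tested 2 passed (40.0%, beside 11.2% of all genes), in opposite directions. SLC48A1, which moves heme out of lysosomes, was at 7.05, 9.19 and 8.37 FPKM with MA and at 4.94, 6.39 and 5.74 FPKM without (log2 fold change 0.57 ± 0.16, unadjusted p = 0.0092, adjusted p = 0.388 by edgeR). PGRMC2, a heme chaperone and the most abundant of the list, was at 9.40, 11.4 and 9.94 FPKM with MA and at 14.7, 12.9 and 14.8 FPKM without (-0.42 ± 0.13, unadjusted p = 0.0133, adjusted p = 0.394 by edgeR). Neither gene had overlapping groups. With each library's GC trend removed the log2 fold change of PGRMC2 was -0.19 (unadjusted p = 0.355 by edgeR), and its call was also lost without MA PANC-1 1.

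Of the 8 tested genes of ALAS1 regulation and turnover 1 passed (12.5%, beside 11.2% of all genes). GABPA, an ETS-family transcription factor, was at 5.09, 3.67 and 6.13 FPKM with MA and at 7.06, 5.90 and 8.12 FPKM without, with overlapping groups (log2 fold change -0.47 ± 0.19, unadjusted p = 0.0398, adjusted p = 0.436 by edgeR). The GABPA call held in 12 of 17 alternatives. It was lost with each library's GC trend removed (log2 fold change -0.20, unadjusted p = 0.0771 by edgeR) and without any 1 of MA PANC-1 1, MA PANC-1 2, PANC-1 1 or PANC-1 3 (unadjusted p from 0.0822 to 0.137). LONP1, a mitochondrial protease that degrades ALAS1 and the most abundant of the list, was at 47.7 ± 6.63 FPKM with MA and 49.0 ± 5.68 FPKM without (SD, n = 3), with overlapping groups, and its log2 fold change on TMM-scaled counts was 0.0039, opposite in sign to the difference in mean FPKM. In each of the lists of heme sensors and of heme a and cytochrome c maturation, 0 of 5 genes passed an unadjusted p of 0.05 by edgeR, and 0 by DESeq2 or limma on log2(FPKM + 0.1). Their most abundant genes were EIF2AK1, the heme-regulated kinase of translation (log2 fold change 0.04), and CYCS, cytochrome c (0.06).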

How the data were processed

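RNA of 3 MA PANC-1 and 3 PANC-1 samples, grouped by their labels, was sequenced as paired reads. The authors deposited for each gene an FPKM value per sample, normalized by gene length and depth (genes with a count of 0 stand at 0.0001). The table also holds an estimated count per sample, deposited by the authors as a whole number that was not normalized. Per the labels' processing notes, the tools were cutadapt 1.9, HISAT2 2.0.4, StringTie 1.3.4d, edgeR and DESeq2. The build and annotation release were not given in the sources used here. Gene positions match GRCh38, and 47556 of 58825 genes have the same chromosome, start, end and strand in GENCODE 29.

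Counts were tested with edgeR 4.0.16 (R 4.3.3, quasi-likelihood test, TMM) where the mean FPKM was 0.1 or more, with Benjamini-Hochberg adjustment over all 17774. The biological coefficient of variation was 0.308. Single genes had an exact permutation test on log2 CPM. The totals exceed the valid reads of the study, so the precision rests on replicates, and no counting intervals were given. With the estimated counts taken as reads, replicate libraries differed beyond counting noise (chi-square per degree of freedom 57.6 or more). This chi-square cannot show that libraries are independent. Each was counted as 1 sample, following the study's term biological replicates.

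Named genes are all 7 enzymes, the other pathway genes past an unadjusted p of 0.05, the gene of the highest mean FPKM in each list, and the nearest genes by pattern. Named beyond this rule, after values were seen, were cell type markers, pathway genes that were not tested, NRF1 and GATA1 for their motifs, and B4GALT3 and FECHP1 as an overlapping gene and a pseudogene. SLC25A28, SUCLG2 and SUCLA2 were also named beyond it, as relatives or partner subunits of genes that passed. Of several identifiers with 1 name, that of highest mean FPKM was used. The members and lists were chosen with earlier results of these data known. The name MFSD7 was matched as SLC49A3. Another enzyme of the pathway is not analysed here. Promoters came from RefSeq (GRCh38.p14), and UROS had no entry.

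Alternatives were other size factors, DESeq2 1.42.0, limma 3.58.1 on log2(FPKM + 0.1, 1 or 0.01), filters, halved counts, a replicate block, and leaving out each sample. Removal of each library's GC trend (loess, span 0.5), the order by mRNA length and the heme degradation count were added after seeing the data.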

Additional observations from a re-analysis of the deposited data

How the results depend on the processing

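The number of enzymes past an unadjusted p of 0.05 was 1 under every alternative that kept all samples, and from 0 to 1 when a sample was left out. It was 0 without PANC-1 2, and without PANC-1 3 the 1 gene was FECH and not ALAS1. The ALAS1 call held in 15 of 17 alternatives. UROD was the one enzyme to change direction, with a log2 fold change of -0.010 without MA PANC-1 2 (range on leaving out samples -0.010 to 0.23). The count of other pathway genes past p ran from 5 to 14, and that of heme degradation genes from 1 to 4, when a sample was left out. Beyond leaving out samples, the pathway count lay between 9 and 11 and the heme degradation count stayed at 4. The number of DEGs among all genes tested, 342, was 93 with a filter at a mean FPKM of 1, 569 with no filter, 44 by limma on log2(FPKM + 1), and from 326 to 534 when a sample was left out. In the level order, 3 of 7 enzymes kept their rank with the length of the principal mRNA. Where a value moved beyond leaving out samples or genes, the cause was not tested.

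Samples with the same replicate number shared little of their deviation from the group means (correlations 0.03, 0.05 and 0.07). Pairing by number was therefore not evident, but correlations over all genes tested cannot exclude it. With the replicate number as a block, 1 enzyme, 11 other pathway genes and 327 DEGs passed.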
